A study of Mus musculus with 30 samples.

Results

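Gene expression was compared between the cerebral cortex of mice that lack COX-1 (COX-1-/-) and the cortex of wild-type mice of the same line (WT). The comparison took every array that the sample labels assign to these groups, 3 of COX-1-/- cortex and 3 of WT cortex, which are 6 of the 30 arrays of the series. All mice were 12 weeks old, untreated, and of a mixed genetic background, C57BL6 with an Ola strain. COX-1-/- mice came from null males mated with heterozygous females, and WT mice came from matings between wild types, so the groups were not littermates. The loss of COX-1 was present from conception and in every tissue. The groups used for reference were the COX-1-/- and WT hippocampus and the COX-2-/-, COX-2 heterozygous and WT cortex of the COX-2 line, with 3 arrays each. Labelled cDNA was hybridised to nylon membranes, and the probes of the second part of the table could be compared. Among these probes, 4875 carry 1 gene symbol, for 4209 genes, and 4102 were expressed, which means that their mean Z over the 6 arrays was above 0. The expressed probes include 2337 with 1 gene symbol, for 2140 genes.

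COX-1, encoded by Ptgs1, converts arachidonic acid that phospholipases release from membranes into prostaglandin H, from which other enzymes make prostaglandins and thromboxane. These products act through G protein-coupled receptors, several of which raise or lower cyclic AMP. In brain COX-1 is made constitutively and is known above all from microglia and some neurons.

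No probe of Ptgs1 was found by symbol, so the deleted gene gave no check of the labels. Each value is a Z score, the log intensity of a probe counted in SDs from the average probe of its array, and a gap between Z scores cannot be read as a fold. The first part of the table is the same on 5 of the 6 arrays, all but COX-1-/- array 3, and was left out, whereas in the second part the arrays share 0 values. Across these rows the correlation was 0.987 to 0.990 among COX-1-/- arrays, 0.984 to 0.986 among WT arrays, and 0.983 to 0.988 between the groups. The neuron markers Uchl1, Nefl and Gap43 were expressed, and their mean Z was 0.201 to 0.209 on COX-1-/- arrays and 0.0571 to 0.241 on WT arrays. The astrocyte markers Gja1, Sparcl1 and Slc1a3 were also expressed, and their mean Z was 0.454 to 0.524 on COX-1-/- arrays and 0.486 to 0.726 on WT arrays. In COX-1-/- cortex 1 of them had a higher and 2 a lower mean, and 0 met the rule of size used below. Neither of the 2 hippocampal, striatal and thalamic markers in the compared rows was expressed. The study used 3 mice a group and also speaks of triplicates, so the p-values measure the spread between arrays, which may be partly technical. The smallest p of an exact permutation test of 3 arrays against 3 is 0.1, and no such test was used.

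Across the 4102 expressed probes, limma called 2 (0.0488%) at an adjusted p under 0.05, and both were lower in COX-1-/- cortex. Rab11a, a small GTPase of recycling endosomes, had Z scores of 0.690, 0.794 and 0.601 in COX-1-/- cortex, against 1.09, 1.07 and 0.982 in WT cortex. The lowest WT array was above the highest COX-1-/- array, and the difference was -0.352 ± 0.0512 (SE, adjusted p = 0.0288, limma). Eif4a1, the RNA helicase of the cap-binding complex that starts translation, had 0.774, 0.914 and 0.709 in COX-1-/- cortex, against 1.06, 1.18 and 1.13 in WT cortex. The groups again did not overlap, and the difference was -0.323 ± 0.0505 (SE, adjusted p = 0.0308, limma). In tissue RNA, fewer cells of a type and less RNA per cell cannot be told apart. The number of calls depended on the model: it was 0 when the 6 arrays were fitted alone, with 338 probes at an unadjusted p under 0.05, and 77 when all 30 arrays shared the estimate of the spread. It was also 0 without COX-1-/- array 1, COX-1-/- array 3, WT array 1 or WT array 2, whose fits put 586, 490, 596 and 598 probes at an unadjusted p under 0.05, 3 without COX-1-/- array 2 and 4 without WT array 3. A further Rab11a probe, below background, ran the other way, with -0.335, -0.146 and -0.241 in COX-1-/- cortex and -0.618, -0.254 and -0.356 in WT cortex.

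The promoters of these limma-called genes are shown because several prostanoid receptors signal through cyclic AMP, whose response element has TGACG as its core. Each sequence runs 5′ to 3′ from 250 bases before the gene's start to 50 bases after it (RefSeq, GRCm38.p6), with TGACG or its complement CGTCA in capitals. Rab11a lies on the minus strand at chr9:64737707-64738006 and holds 2 matches, and Eif4a1 lies on the minus strand at chr11:69672374-69672673 and holds 1.
Rab11a: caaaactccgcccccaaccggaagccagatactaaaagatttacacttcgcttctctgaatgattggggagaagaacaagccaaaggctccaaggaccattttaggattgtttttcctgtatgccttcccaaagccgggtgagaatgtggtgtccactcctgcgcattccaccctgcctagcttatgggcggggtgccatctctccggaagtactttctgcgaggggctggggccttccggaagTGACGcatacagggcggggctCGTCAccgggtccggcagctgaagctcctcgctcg
Eif4a1: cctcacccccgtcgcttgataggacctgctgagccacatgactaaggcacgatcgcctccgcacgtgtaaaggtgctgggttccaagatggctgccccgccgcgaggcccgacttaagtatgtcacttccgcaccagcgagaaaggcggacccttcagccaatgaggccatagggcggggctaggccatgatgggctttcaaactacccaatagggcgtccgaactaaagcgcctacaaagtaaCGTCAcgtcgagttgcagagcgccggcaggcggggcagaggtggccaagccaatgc

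In all, 5 motifs were searched on both strands, and the choice of Rab11a and Eif4a1 for display used their expression values. TGACG was present in 14 of 36 promoters (38.9%) of genes that were lower by a rule of size (a z ratio beyond 1.5, defined with its counts), in 5 of 17 (29.4%) of those that were higher, in 36.1% of 1741 promoters of expressed genes and in 23% of 27025 promoters in all. The full element TGACGTCA, which contains TGACG, was present in 3 of 36 (8.33%), 1 of 17 (5.88%), 3.16% and 2.03% of the same sets. The NF-kappaB site in its canonical form was present in 1 of 36, 0 of 17, 0.345% and 0.174%, and in a form with AA in place of the central AC in 0 of 36, 0 of 17, 0.172% and 0.107%. GCGTG, the core of the element bound by the aryl hydrocarbon receptor, was present in 25 of 36 (69.4%), 13 of 17 (76.5%), 59% and 35.2%. A match is a stretch of letters and not a shown binding site.

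A rule of size, with the criteria of the study but another divisor, asked for a mean Z above 0, a Z test P under 0.05 and a z ratio beyond 1.5. The methods of the study divide the group difference by the SD of all genes on an array, which is 1 for Z scores. In that form 0 probes met the rule. The study itself lists z ratios beyond 1.5 for this comparison, so its own calls did not rest on a divisor of 1. Here the z ratio is the group difference over the SD of such differences across probes. This SD was 0.111 over the compared rows, so the limit lay at a difference of 0.166. The rule took 111 of 4102 expressed probes (2.71%), of which 41 (1%) were higher and 70 (1.71%) lower in COX-1-/- cortex. Among the 71 that carry 1 gene symbol, 23 were higher and 48 lower. In 103 of the 111 the groups did not overlap, and 768 of all expressed probes (18.7%) had groups that did not overlap. At an unadjusted p under 0.05, limma counted 609 probes (14.8%), with 344 higher (8.39%) and 265 lower (6.46%), and 110 of the 111 were among them. The counts of 103 and 110 follow largely from the rule, which selects large differences with a small spread on the same 6 arrays. The plot of difference against level shows that the largest differences were on the lower side. With the SD taken over all rows, copied ones included, it was 0.0887, and the rule took 230 probes, 109 higher and 121 lower. The count of calls thus depended on the divisor.

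**Figure D1:**
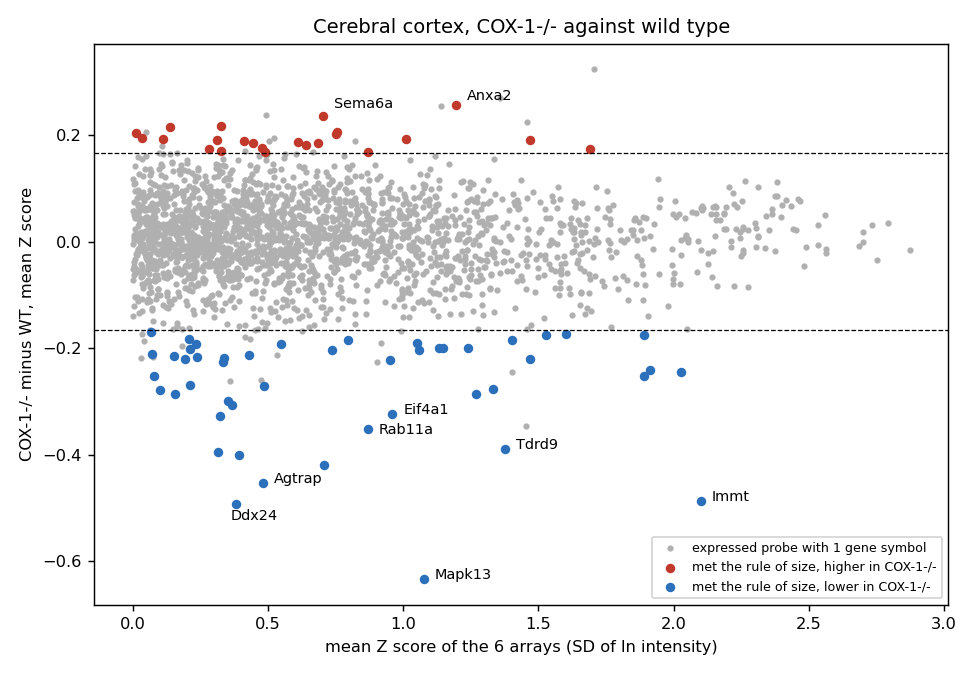
Each point is an expressed probe with 1 gene symbol, with the mean Z score of the 6 arrays on the x axis and COX-1-/- minus WT on the y axis, both in SD of ln intensity. Dashed lines mark the limit of 0.166 in size; the 23 red points met the rule of size as higher and the 48 blue points as lower in COX-1-/- cortex, and the lowest, Mapk13, lies at -0.634.

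Mapk13, which encodes the p38 delta stress kinase, had the lowest z ratio, with Z scores of 0.935, 0.936 and 0.410 in COX-1-/- cortex, against 1.31, 1.48 and 1.39 in WT cortex. Every WT array was above every COX-1-/- array, and COX-1-/- array 3 was the lowest. The difference of -0.634 ± 0.124 (SE) was a z ratio of -5.72 with an adjusted p of 0.107 in limma. Of the 13 expressed genes of the MAP kinase list, Mapk13 was the member that met the rule, and the median difference of the list was -0.0506, against 0.00819 over all genes. Mapk14, another p38 kinase, averaged 1.56 in COX-1-/- and 1.62 in WT cortex. Fcer1g, the common gamma chain of Fc receptors, which microglia express in brain, had 0.218, 0.266 and -0.130 in COX-1-/- cortex, against 0.373, 0.627 and 0.542 in WT cortex (z ratio -3.57, adjusted p = 0.174, limma). The other 4 expressed microglia and macrophage markers did not meet the rule: C1qb and Ctsd had lower and C1qc and Cst3 higher means in COX-1-/- cortex. The mean Z of all 5 was 0.285 to 0.433 on COX-1-/- arrays and 0.408 to 0.491 on WT arrays, and the part of microglia in the Fcer1g value was not tested. Agtrap, a membrane protein that binds the type 1 angiotensin II receptor and favours its internalisation, had 0.332, 0.350 and 0.0853 in COX-1-/- cortex, against 0.632, 0.754 and 0.742 in WT cortex (z ratio -4.09, adjusted p = 0.128, limma).

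Ddx24 and Immt had the next lowest z ratios. Immt, which encodes mitofilin, an organiser of crista junctions in the inner mitochondrial membrane, had 1.51, 2.10 and 1.97 in COX-1-/- cortex, against 2.29, 2.39 and 2.35 in WT cortex. The groups did not overlap, and COX-1-/- array 1 stood apart from arrays 2 and 3; the z ratio was -4.39 (adjusted p = 0.112, limma), and without COX-1-/- array 3 the Z test P missed its limit and the probe no longer met the rule. Ddx24, a DEAD-box RNA helicase, had 0.361, 0.303 and -0.253 in COX-1-/- cortex, against 0.530, 0.712 and 0.647 in WT cortex (z ratio -4.44, adjusted p = 0.152, limma). COX-1-/- array 3 was far below the other arrays of its group, and without it the z ratio was -2.63. Tiparp, a mono-ADP-ribosyltransferase known as a target of the aryl hydrocarbon receptor, had 0.598, 0.616 and 0.279 in COX-1-/- cortex, against 0.852, 0.977 and 0.922 in WT cortex (z ratio -3.78). Tdrd9, a tudor domain helicase known from piRNA silencing in germ cells, had 1.11, 1.23 and 1.21 in COX-1-/- cortex, against 1.48, 1.59 and 1.64 in WT cortex (z ratio -3.51). Its arrays lay close together within each group, and without COX-1-/- array 3 its z ratio was -3.55. Zfand6, an AN1 zinc finger protein (z ratio -3.60), Rnf145, a ubiquitin ligase of the endoplasmic reticulum (-2.96), and Nipbl, the loader of cohesin onto chromosomes (-2.77), completed the 12, which were chosen among probes whose groups did not overlap. Further probes did not share the difference: a second expressed Zfand6 probe had a z ratio of 0.624 and a second expressed Nipbl probe -0.111.

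**Figure D2:**
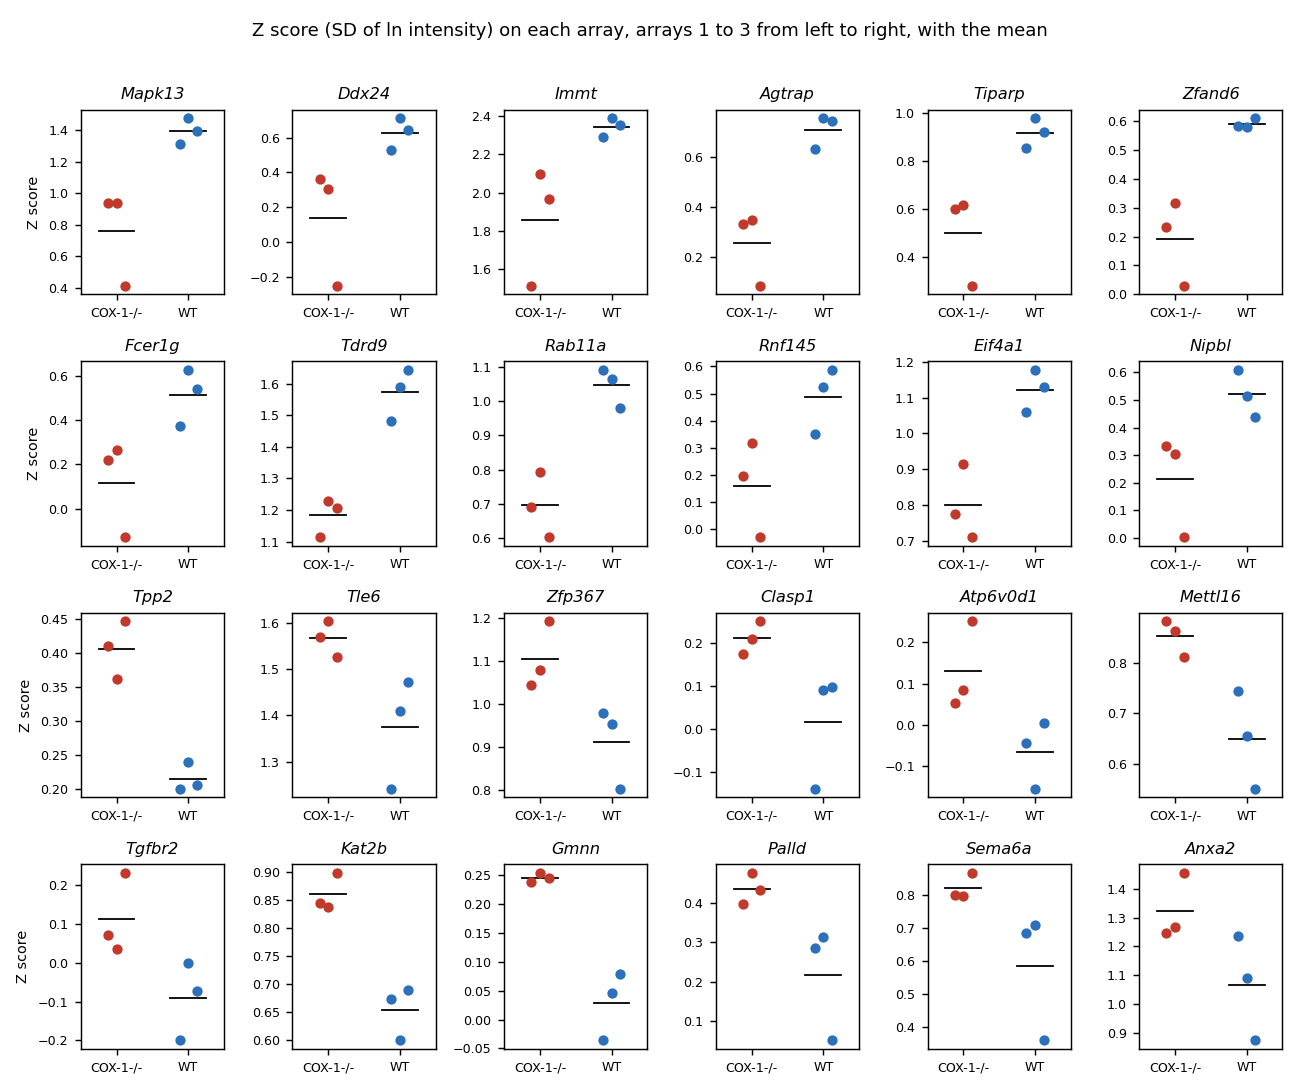
Z scores (SD of ln intensity) on each array for the genes with the 12 lowest and 12 highest z ratios whose groups did not overlap, COX-1-/- in red on the left and WT in blue on the right, with a line at the mean. Each panel has its own y axis. In Mapk13, Ddx24, Tiparp and Nipbl, COX-1-/- array 3 lies well below COX-1-/- arrays 1 and 2.

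COX-1-/- array 3, the array without the copied rows, was the lowest of its group in 53 of the 70 lower probes, and COX-1-/- array 2 was the highest in 46 of them. Among the 41 higher probes, array 3 was the highest of its group in 24. Without array 3 the rule took 94 probes, 43 higher and 51 lower, and 59 of these were among the 111. Of the genes named by symbol, 27 of the 48 lower and 10 of the 23 higher ones still met it. With each of the 6 arrays left out in turn, 19 of the 71 genes met the rule every time, all of them lower in COX-1-/- cortex. These were Mapk13, Agtrap, Tiparp, Zfand6, Fcer1g, Tdrd9, Rab11a, Eif4a1, Nipbl, Cluap1, Castor1, Glo1, Snrpe, Vcp, Hexim2, Ccdc146, Mrpl4, Ube2s and Arl3. Of the 19, only Tdrd9, Vcp, Hexim2 and Ccdc146 also met the rule with the WT arrays of both lines as the control. Castor1, with a COX-1-/- mean of -0.0371, passed the filter only through the WT arrays. The Ube2s probe was near the background (mean Z 0.151), and a second expressed Ube2s probe with a mean Z of 1.03 had a z ratio of 0.216.

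By function, the genes that met the rule were spread over many groups. Of 29 lists of pathways and protein families, 21 had a member that met it, and none had more than 4, against 3.13% of all 2140 expressed genes (1.07% higher and 2.06% lower). Over all these genes 54.5% had a higher mean in COX-1-/- cortex, and 8.08% were higher and 7.1% lower at an unadjusted p under 0.05 in limma. Of 42 expressed genes of the spliceosome and its relatives, 3 were lower, namely Snrpe and Snrpg, which encode core snRNP proteins, and the splicing factor Srsf10, and Snrpb, which encodes another core protein, was higher. Snrpe had 1.82, 1.78 and 1.70 in COX-1-/- cortex, against 1.91, 2.07 and 2.07 in WT cortex, whereas Snrpb had 0.984, 0.997 and 0.881, against 0.779, 0.772 and 0.803. The groups of both genes lay apart, in opposite directions. Snrpb met the rule in 1 of 6 fits with an array left out, and Snrpg and Srsf10 missed it without COX-1-/- array 3 (z ratios -1.14 and -1.43). The Snrpe probe carries the accession that the study assigns to Rnf24, so its identity depends on the annotation used. General transcription factors and RNA polymerase subunits had 3 lower members of 23, Polr2d, Taf1a and Taf12, and no higher one (list median -0.0252). Without COX-1-/- array 3 all 3 missed the limit, with z ratios of -1.23 for Polr2d, -1.49 for Taf1a and -1.41 for Taf12. Taf1a, a subunit of the initiation factor of RNA polymerase I, had 1.38, 1.44 and 1.26 in COX-1-/- cortex, against 1.62, 1.60 and 1.51 in WT cortex. In Taf12, a subunit of TFIID, the groups overlapped. Ubiquitin and SUMO conjugation genes had 3 lower members of 60, Rnf145, Rnf7 and Sumo2, with a list median of 0.0084. Rnf7 missed the rule with any of the 6 arrays left out, and Sumo2 had a z ratio of -0.913 without COX-1-/- array 3. The Rnf7 probe averaged -0.0154 in COX-1-/- and 0.154 in WT cortex, so it passed the filter only through the WT arrays. Of 48 expressed cytosolic ribosomal proteins 0 met the rule (median 0.00652), as did 0 of 26 chaperones and 0 of 12 proteasome genes.

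Genes of traffic and energy metabolism were also among those that met the rule. Arl3, a small GTPase of ciliary transport, met the rule and had 0.122, 0.141 and 0.0732 in COX-1-/- cortex, against 0.314, 0.338 and 0.289 in WT cortex. In the list of vesicle genes, 2 of 47 met it, Vcp, an ATPase that extracts ubiquitinated proteins from membranes, and Vps45, a regulator of SNARE assembly, which missed the rule without COX-1-/- array 3. The Vcp probe had 1.86, 1.98 and 1.88 in COX-1-/- cortex, against 2.17, 2.12 and 2.16 in WT cortex, but a second expressed Vcp probe had a z ratio of 0.474. Ndufa10, a subunit of respiratory complex I, was lower (z ratio -2.45) and 28 other expressed genes of oxidative phosphorylation did not meet the rule. Pfkm, a phosphofructokinase of glycolysis, had a z ratio of -2.57, but -1.41 without COX-1-/- array 3. Glo1, which detoxifies methylglyoxal, a by-product of glycolysis, had 1.23, 1.29 and 1.07 in COX-1-/- cortex, against 1.38, 1.53 and 1.51 in WT cortex (z ratio -2.50, adjusted p = 0.123, limma). Castor1, the arginine sensor of mTORC1, had -0.0398, 0.00914 and -0.0808 in COX-1-/- cortex, against 0.214, 0.224 and 0.283 in WT cortex, close to the background on both sides. Its COX-1-/- mean was -0.0371, so it passed the filter only through the WT arrays. Calb1, a calcium buffer of interneurons and of upper-layer neurons, had 0.445, 0.330 and 0.201 in COX-1-/- cortex, against 0.573, 0.518 and 0.520 in WT cortex (z ratio -1.91, and -1.32 without COX-1-/- array 3). It was the sole expressed member of the interneuron and cortical layer marker lists, and a second expressed Calb1 probe had a z ratio of -0.396, so neuron content and expression were not tested apart.

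The higher genes had smaller differences, with z ratios up to 2.32, and each of the 12 highest missed the rule with at least 1 array left out. Anxa2, a calcium-dependent membrane-binding protein, had 1.25, 1.27 and 1.46 in COX-1-/- cortex, against 1.24, 1.09 and 0.873 in WT cortex (adjusted p = 0.172, limma). The groups nearly touched, with WT array 1 just under the lowest COX-1-/- array. Anxa2 met the rule in 2 of 6 fits with an array left out, its z ratio was 1.30 without WT array 3, and it missed the rule with the WT arrays of both lines as the control. Sema6a, a transmembrane semaphorin that guides axons, had 0.801, 0.796 and 0.868 in COX-1-/- cortex, against 0.686, 0.711 and 0.359 in WT cortex (z ratio 2.13), and Palld, an actin-bundling protein, had 0.396, 0.476 and 0.432, against 0.286, 0.313 and 0.0518 (z ratio 1.97). In both, WT array 3 was far below the other WT arrays. Without it the z ratio was 1.01 for Sema6a and 1.11 for Palld, the smallest with any array left out. Gmnn, an inhibitor of replication licensing, had 0.238, 0.254 and 0.246 in COX-1-/- cortex, against -0.0360, 0.0461 and 0.0785 in WT cortex (z ratio 1.95). Kat2b, a histone acetyltransferase, had 0.844, 0.837 and 0.898 in COX-1-/- cortex, against 0.673, 0.599 and 0.689 in WT cortex (z ratio 1.86). The arrays of these last genes lay close together in COX-1-/- cortex, and the groups were well apart. Tgfbr2, a receptor of transforming growth factor beta, was the member of the NF-kappaB and cytokine list of 11 genes that met the rule (z ratio 1.84, and 1.22 without WT array 1), with 0.0723, 0.0368 and 0.233 in COX-1-/- cortex, against -0.200, 0.000749 and -0.0721 in WT cortex. Its mean Z over the 6 arrays was 0.0118 and its WT mean -0.0905, so it passed the filter only through the COX-1-/- arrays.

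Mettl16, an RNA methyltransferase (z ratio 1.82), Atp6v0d1, a subunit of the vacuolar proton pump (1.76), Clasp1, which binds growing microtubule ends (1.75), the zinc finger protein Zfp367 (1.74), Tle6, of a family of transcriptional corepressors (1.73), and Tpp2, a large cytosolic peptidase (1.72), completed the 12 highest. Tpp2 had 0.410, 0.362 and 0.447 in COX-1-/- cortex, against 0.201, 0.240 and 0.206 in WT cortex, and without WT array 1 its z ratio of 1.49 missed the limit. With 1 array left out the smallest z ratio was 1.25 for Mettl16, 1.19 for Atp6v0d1, 0.949 for Clasp1, 1.13 for Zfp367 and 1.02 for Tle6. Atp6v0d1 was near the background, with a mean Z of 0.0326 and a WT mean of -0.0650, and passed the filter only through the COX-1-/- arrays. Of 38 expressed matrix, integrin and annexin genes, 2 met the rule, Anxa2 and Col1a1, and both were higher. Col1a1, a fibrillar collagen chain made by meningeal and vascular cells, had 0.557, 0.540 and 0.519 in COX-1-/- cortex, against 0.223, 0.462 and 0.374 in WT cortex. Like Anxa2 it met the rule in 2 of 6 fits with an array left out, and its z ratio was 0.979 without WT array 1. The 8 expressed choroid plexus, ependymal and meningeal markers had a mean Z of 0.901 to 0.922 on COX-1-/- arrays and 0.867 to 0.934 on WT arrays, with 4 higher and 4 lower, and their part in the Col1a1 value was not tested.

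None of the genes of arachidonic acid release, prostanoid synthesis and prostanoid receptors met the rule. Of 10 in the compared rows 6 were expressed, with a list median of 0.00292. The rule took 3.13% of all 2140 expressed genes, so a count of 0 among 6 is near that share. Alox5ap, which presents arachidonic acid to 5-lipoxygenase, had 0.196, 0.266 and 0.227 in COX-1-/- cortex, against 0.407, 0.305 and 0.328 in WT cortex. Its groups did not overlap, but the z ratio of -1.05 was inside the limit (unadjusted p = 0.0061, adjusted p = 0.176, limma). Pla2g4a, the cytosolic phospholipase that releases arachidonic acid, had 0.0680, 0.0985 and 0.156 in COX-1-/- cortex, against 0.0655, 0.0172 and 0.0477 in WT cortex (z ratio 0.576, adjusted p = 0.462, limma). The Pla2g4a groups did not overlap but almost touched, and the probe was near the background, with a mean Z of 0.0754. Ptger2, a receptor of prostaglandin E that raises cyclic AMP, had 1.12, 1.21 and 1.07 in COX-1-/- cortex, against 1.21, 1.20 and 1.26 in WT cortex, with groups that overlapped. Ptgis, prostacyclin synthase (z ratio 0.393), Ptges3, known as the cochaperone p23 and a prostaglandin E synthase (0.468), and Slco2a1, a prostaglandin transporter (-0.340), differed by less than the rule's limit.

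Slc6a13, a GABA transporter, had 2.046, 2.004 and 1.855 in COX-1-/- cortex, against 2.048, 2.209 and 2.141 in WT cortex. All COX-1-/- arrays were below all WT arrays, though COX-1-/- array 1 and WT array 1 were almost equal, and the z ratio of -1.48 was just inside the limit (adjusted p = 0.196, limma). With the SD over all rows as divisor the same difference of -0.165 exceeds the limit. Of the 8 expressed genes of GABA and glutamate neurotransmission 0 met the rule, against 3.13% of all 2140 expressed genes. In COX-1-/- cortex 5 of the 8 had lower means, with a list median of -0.0845. Dbi, the diazepam binding inhibitor, averaged 0.686 in COX-1-/- and 0.830 in WT cortex, and Slc1a3, a glutamate transporter of astrocytes, averaged 0.000262 and 0.150. At an unadjusted p under 0.05 limma counted 3 of the 8, Slc6a13, Dbi and Slc1a5, all lower (15.2% of all 2140 genes were counted). Jak1 was below background on every array, with -0.551, -0.480 and -0.644 in COX-1-/- cortex, against -0.464, -0.313 and -0.334 in WT cortex. Hsd17b10, a mitochondrial dehydrogenase of isoleucine and fatty acid breakdown, had 1.07, 1.21 and 1.26 in COX-1-/- cortex, against 1.24, 1.03 and 1.19 in WT cortex, and Mat2b, a regulatory subunit of methionine adenosyltransferase, was below background.

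The other cortex groups were read at the same probes. These arrays do not enter the rule, but the probes were chosen for the distance of the COX-1 line's WT arrays from COX-1-/- arrays, so any other group tends to lie on the COX-1-/- side of that WT, and the counts are a description. Of the 70 lower probes, the WT cortex of the COX-2 line lay on the COX-1-/- side of the COX-1 line's WT in 69 and was nearer to COX-1-/- in 59. The median difference of this group from the COX-1 line's WT was -0.238, and COX-1-/- minus this group had a median of 0.00646. Of the 41 higher probes, it lay on the COX-1-/- side in 39 and was nearer to COX-1-/- in 24. Eif4a1 averaged 0.799 in COX-1-/- and 0.785 in COX-2 line WT cortex, against 1.12 in COX-1 line WT cortex. Rab11a averaged 0.695 in COX-1-/- and 0.638 in COX-2 line WT cortex, against 1.05 in COX-1 line WT cortex. Between the WT groups themselves limma called 80 of 4103 probes (1.95%), 11 higher and 69 lower in the COX-2 line. Of the 12 lowest genes, 8 were lower in COX-2 line WT than in COX-1 line WT at an adjusted p under 0.05, among them Rab11a (-0.408 ± 0.0512 SE, adjusted p = 0.00515, limma), Eif4a1 (-0.338 ± 0.0505, adjusted p = 0.0112) and Tiparp (-0.517 ± 0.0884, adjusted p = 0.017). Of the 12 highest genes 0 were called between the WT groups. The loss of COX-1 and whatever sets the WT arrays of the COX-1 line apart cannot be told apart at these probes.

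**Figure D3:**
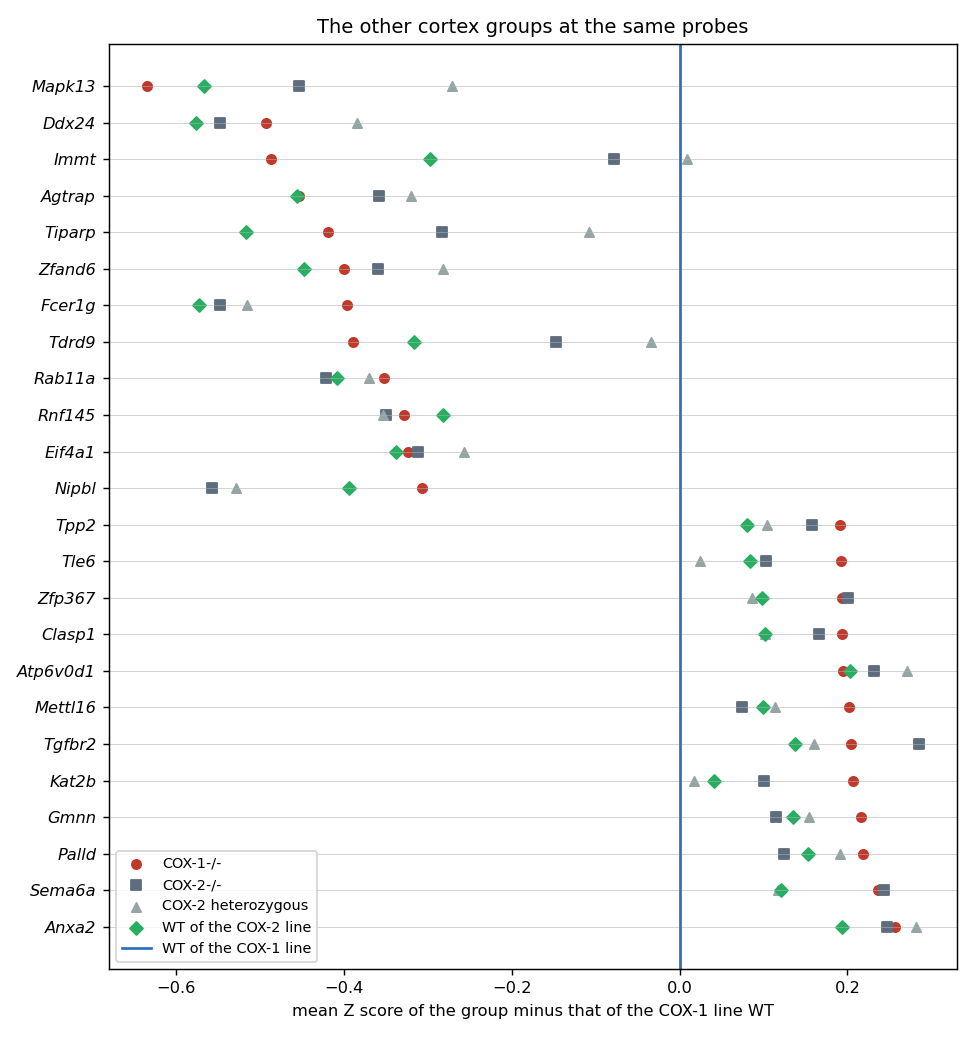
Mean Z score of each cortex group minus that of the COX-1 line WT cortex (vertical line at 0) for the genes of the array plot, 3 arrays a group. For Rab11a, Eif4a1, Agtrap and Nipbl all 4 other groups, with and without COX-1, lie together on the lower side, whereas for Kat2b the WT of the COX-2 line lies near 0.

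With the WT arrays of both lines as the control, the rule took 104 probes, of which 65 were higher and 39 lower, and 45 were among the 111. By symbol, 10 of the 48 lower and 16 of the 23 higher genes still met it. Tdrd9 kept a z ratio of -2.73, and among the others were Vcp, Hexim2, Macf1 and Itm2b. With an array left out of the comparison within the COX-1 line, Macf1 met the rule in 4 of 6 fits and Itm2b in 1. Itm2b averaged -0.0465 in COX-1-/- and 0.205 in COX-1 line WT cortex. It thus passed the filter only through the WT arrays, and a second expressed Itm2b probe had a z ratio of -0.840. Mapk13 had a z ratio of -4.14, Immt -3.99 and Agtrap -2.67 in this form, but the spread between the WT groups put their Z test P above its limit. Gmnn (1.76), Kat2b (2.19), Snrpb (2.23) and Sema6a (2.08) were among the higher genes that still met it.

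The clones of the membrane also differed. Expressed probes with 1 symbol whose accession begins with BQ met the rule in 12 of 93 cases (12.9%), all lower, against 2.63% of the other 2244. They supplied 7 of the 12 lowest genes, Ddx24, Agtrap, Tiparp, Zfand6, Rnf145, Eif4a1 and Nipbl. The mean Z of the 93 probes was 0.706, 0.733 and 0.591 in COX-1-/- cortex, against 0.732, 0.753 and 0.715 in WT cortex. COX-1-/- array 3 was apart from the other 5 arrays of the comparison and within the range of the 9 arrays of the COX-2 line's cortex, 0.571 to 0.652. Without it 9 of 95 BQ probes met the rule, all lower, and 2.1% of the others, and with the WT arrays of both lines as the control 1 of 92 did. For probes with BG accessions, 2028 in number, the array means were 0.666 to 0.677 in COX-1-/- and 0.664 to 0.665 in WT cortex. The part of these clones in the values of single genes was not tested.

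**Figure D4:**
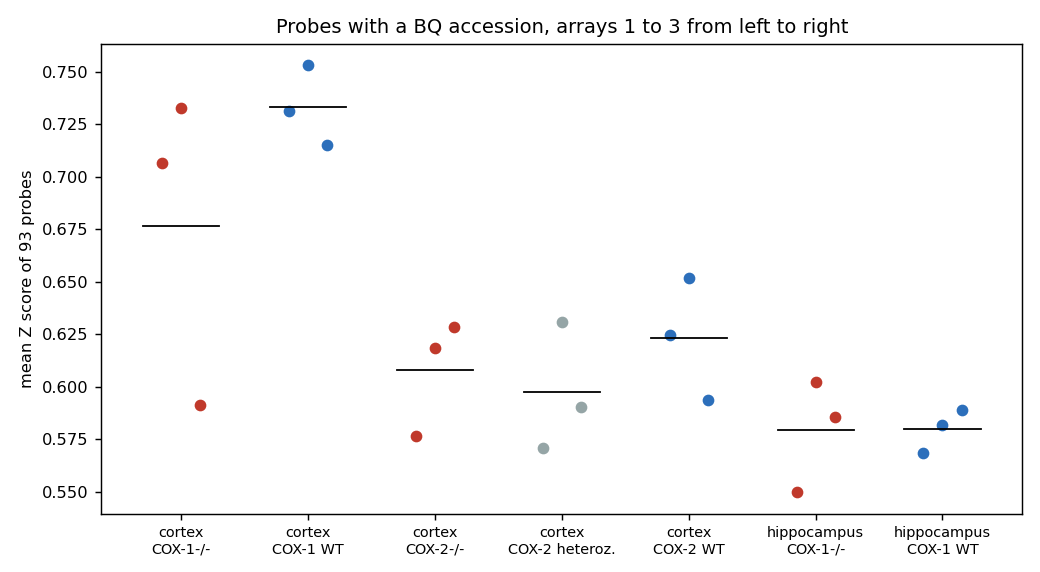
Mean Z score (SD of ln intensity) of the 93 expressed probes with a BQ accession on each array, with a line at the group mean; the y axis does not start at 0. COX-1-/- arrays 1 and 2 and the WT arrays of the COX-1 cortex lie between 0.706 and 0.753, and COX-1-/- array 3 lies at 0.591, among the other groups.

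The effect of COX-1 loss in cortex was then set against that in hippocampus, in a model of all 30 arrays. The contrast between the regions was called for 112 of 4127 probes (2.71%, limma), 58 of them with 1 symbol, and 30 of the 112 also met the rule in cortex. When the 12 arrays of the COX-1 line were fitted alone, 0 were called and 561 had an unadjusted p under 0.05. The count was 57 without COX-1-/- cortex array 1, 60 without COX-1-/- cortex array 2 and 71 without WT cortex array 2. The choice of the named genes used the cortex values, so their contrasts are partly a consequence of that choice. The part of row position in the contrasts was not tested. Rab11a differed by -0.352 between COX-1-/- and WT cortex, and averaged 0.546 in COX-1-/- and 0.561 in WT hippocampus (contrast -0.337 ± 0.0689 SE, adjusted p = 0.0122). Mapk13 averaged 0.866 in COX-1-/- and 0.631 in WT hippocampus, the opposite order to cortex (contrast -0.870 ± 0.153 SE, adjusted p = 0.00911). Kat2b averaged 0.670 in COX-1-/- and 0.757 in WT hippocampus, again the opposite order (contrast 0.293 ± 0.0634 SE, adjusted p = 0.0163). Among genes that did not meet the rule, Ppp5c, a protein phosphatase that binds Hsp90, averaged 0.527 in COX-1-/- and 0.387 in WT cortex, and 0.203 in COX-1-/- and 0.355 in WT hippocampus (adjusted p = 0.0111). Cryab, a small heat shock protein of glia, averaged 0.326 in COX-1-/- and 0.242 in WT cortex, and 0.422 in COX-1-/- and 0.651 in WT hippocampus (adjusted p = 0.0468).

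**Figure D5:**
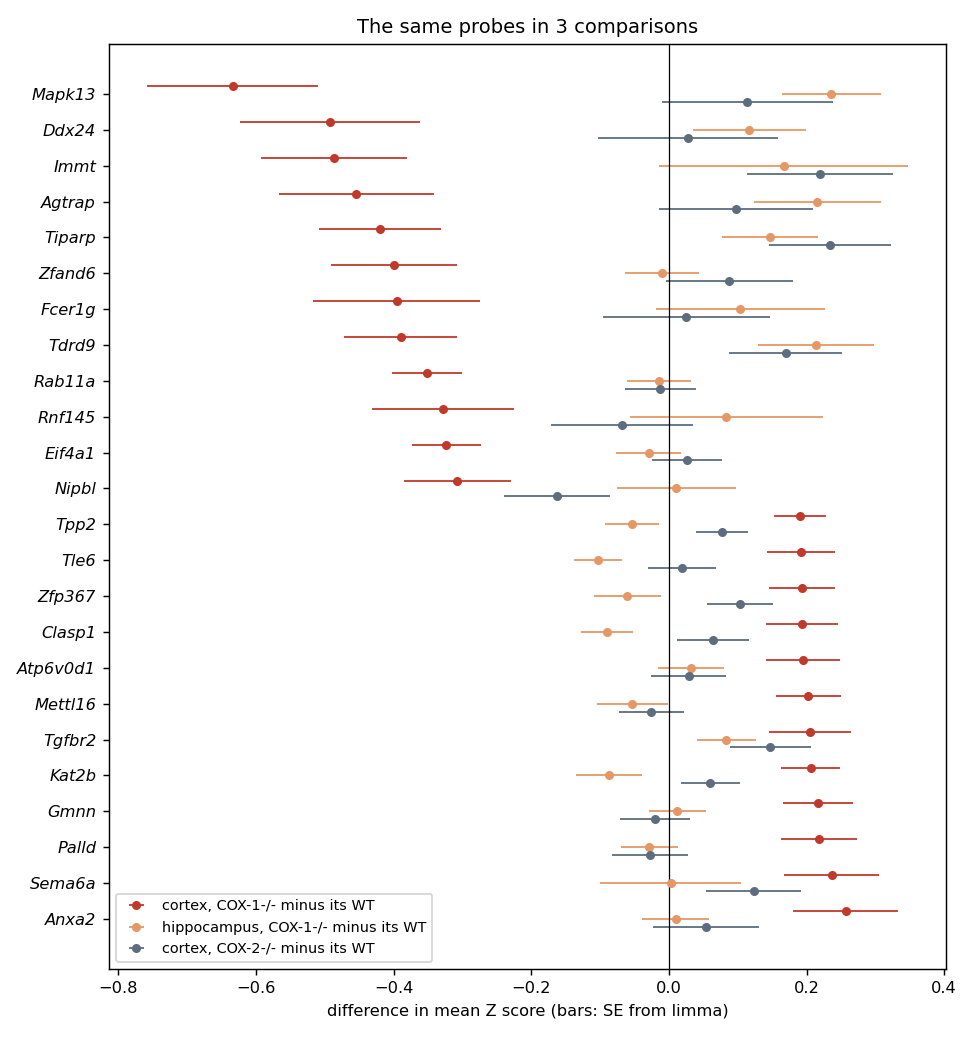
Difference in mean Z score with its SE from limma for the genes of the array plot in COX-1-/- minus WT cortex (red), COX-1-/- minus WT hippocampus (orange) and COX-2-/- minus WT cortex (grey), 3 arrays a group. The red points were chosen for their distance from 0, and for most genes the orange and grey points lie nearer to 0 or on the other side.

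Against the effect of COX-2 loss in cortex, limma called 0 of 4109 probes (0%), with 437 at an unadjusted p under 0.05 and a smallest adjusted p of 0.0665. When all 30 arrays shared the estimate of the spread 21 were called. Immt differed by -0.487 between COX-1-/- and WT cortex and by 0.219 between COX-2-/- and WT cortex (contrast -0.706, adjusted p = 0.107, limma), and Tiparp by -0.419 and 0.234 (contrast -0.653, adjusted p = 0.0967).

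Genes that flank Ptgs1 on its chromosome can carry the strain of the embryonic stem cells in null mice. Of the 100 protein-coding genes on each side, 39 had a probe in the compared rows and 16 were expressed. The nearest expressed genes were Ndufa8, at position -5 from Ptgs1 in gene order, and Strbp, at position 35. None of the 16 met the rule, which took 2.71% of all expressed probes, so a count of 0 is near that share. Their z ratios were -1.24 to 0.560. The lowest was Mmadhc, a protein of vitamin B12 metabolism, with 1.24, 1.27 and 1.17 in COX-1-/- cortex, against 1.39, 1.34 and 1.37 in WT cortex (unadjusted p = 0.0123, adjusted p = 0.214, limma). It was the sole gene of the 16 with an unadjusted p under 0.05, against 14.8% of all expressed probes.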

How the data were processed

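The deposited values are scores, the authors' Z normalization of the natural log intensity of each array. The authors labelled 5 µg of total RNA with radioactive dCTP, hybridised it to nylon membranes, scanned them with a phosphoimager and processed the images with ArrayPro. The 2 parts of the table, rows 1 to 8448 and 8449 to 16896, were each standardised, so that all arrays have a mean of 0 and an SD of 1 in either. Arrays have no sequencing depth, so precision rests on 3 arrays a group. Gene symbols came from the platform annotation: of 16896 probes, 9663 have 1, 436 have several and 6797 have none.

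The study's criteria were applied to rows 8449 to 16896, with the SD of the group differences over these rows as the divisor of the z ratio in place of the SD of an array that the methods name. limma 3.58.1 (R 4.3.3) fitted the 15 cortex arrays as 5 group means, with moderation over the 8448 compared rows and Benjamini-Hochberg adjustment over expressed probes. Contrasts between regions used all 30 arrays. The gene members and lists were chosen with earlier results of these data known. Named genes were limma calls, the 12 highest and 12 lowest z ratios without overlap, list members that met the rule, prostanoid genes and genes the study discusses. Genes outside these classes, such as Castor1, Glo1, Cluap1, Hexim2, Ccdc146, Ube2s, Itm2b, Tns4, Pnkd, Dbi, Slc1a5, Mapk14, Mmadhc, Cryab and the phosphatase genes, were added after their values were seen. Lists were counted by each gene's highest expressed probe. Alternatives were other normalizations, filters, controls, divisors, models and left-out arrays. A moderation over expressed probes alone was tried after the first results were seen and is given only as an alternative. The code was tested on simulated data. Other software was scipy 1.17.1, numpy 2.4.6, pandas 2.3.3, matplotlib 3.10.9, Python 3.11.15 and the R package data.table (1.17.8).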

Additional observations from a re-analysis of the deposited data

Results flagged for a closer look

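Among the 71 genes with 1 symbol that met the rule in cortex, 21 differed between the COX-1 effect in cortex and that in hippocampus. The test was limma's contrast in the model of all 30 arrays, with adjusted p-values of 0.00911 to 0.0494. Over all probes the contrast was called for 112 of 4127 (2.71%). The contrast was negative, so the COX-1-/- minus WT difference was lower in cortex than in hippocampus, for 13 genes, with these differences in Z: Mapk13 -0.870, Agtrap -0.669, Ddx24 -0.610, Tdrd9 -0.603, Tiparp -0.566, Glo1 -0.410, Rab11a -0.337, Snrpe -0.327, Ccdc146 -0.319, Arl3 -0.312, Tns4 -0.312, Macf1 -0.310, Eif4a1 -0.294. It was positive for 8 genes: Tle6 0.295, Kat2b 0.293, Clasp1 0.284, Snrpb 0.260, Mettl16 0.256, Zfp367 0.254, Pnkd 0.253, Tpp2 0.244. Of these, Tpp2, Kat2b, Clasp1, Snrpb and Tle6 lie in rows 12673 to 13376. The median cortex difference of expressed probes there was 0.0371, against 0.00846 over all expressed probes. After a running median over row order Snrpb missed the rule in cortex (z ratio 1.36), and Tpp2, Kat2b, Clasp1 and Tle6 met it. The part of row position in the contrasts between regions was not tested. With the 12 arrays of the COX-1 line alone the contrast was called for 0 probes, with 561 at an unadjusted p under 0.05. The genes had been named from their cortex values, which are part of the contrast, so the count of 21 is partly a consequence of that choice.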

How the results depend on the processing

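The 2 limma calls became 0 with the 6 arrays alone or with the WT arrays of both lines (338 and 486 probes at an unadjusted p under 0.05), 4 with quantile normalization, 6 after a running median over row order, 7 without a filter, 11 with the replicate block, 29 with an intensity trend, 77 with all 30 arrays and 20 with moderation over expressed probes alone, which was chosen after seeing the data. They ranged from 0 to 4 with each array left out, and both genes stayed lower in every setting. The cause of these shifts was not tested. The labels link the same-number arrays of the groups by number alone. The correlations of their deviations were 0.0530, 0.0347 and 0.0868, each the highest for its number, against -0.0747 to 0.0270 for other pairs. What same-number arrays may share was not tested. The rule of size took 349 probes without a filter, 58 at a mean Z above 0.5, 230 with the SD of all rows, 37 at a z ratio beyond 2, 0 with a divisor of 1, and 105 with the replicate block. After the running median it took 23 higher and 68 lower probes, against 41 and 70. Of these 91 probes, 64 were among the 111 of the main form. Of the 71 genes named by symbol 25 missed the rule in this setting, Arl3 (z ratio -1.37), Anxa2 and Sema6a among them. Probes without overlap numbered 1481 without a filter, 438 above a mean Z of 0.5, 231 against both WT groups, and 1072 to 1278 with an array left out. The 112 region calls became 0 with the 12 arrays alone, 195 without a filter, and 57 to 125 with an array left out, 57 and 60 of them without COX-1-/- arrays 1 and 2 and 71 without WT array 2. The 0 calls between the COX-1 and COX-2 effects became 21 with all 30 arrays, 20 with the added moderation, 4 without a filter, 1 with the replicate block, and 0 to 3 with an array left out. Precision was limited by 3 arrays a group and, near a Z of 0, by the background.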

Other observations

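Protein phosphatase genes, a list described after its values were seen, had no member that met the rule, against 3.13% of all 2140 expressed genes. Of 15 expressed genes 9 had a higher mean in COX-1-/- cortex, with a list median of 0.0432, against 0.00819 over all genes. At an unadjusted p under 0.05 limma counted 3, all higher in COX-1-/- cortex, whereas 8.08% of all genes were counted as higher. They were Ppm1d, which averaged 0.575 in COX-1-/- and 0.412 in WT cortex, Ppp2cb, a catalytic subunit of protein phosphatase 2A, with 0.590 and 0.454, and Ppp5c, with 0.527 and 0.387. None passed the adjustment over all expressed probes (adjusted p = 0.132 for Ppm1d, 0.205 for Ppp2cb and 0.2 for Ppp5c, limma). Zinc finger and Kruppel-like factors had 23 of 35 genes with a higher mean in COX-1-/- cortex and a median of 0.0305, where 54.5% of all genes had a higher mean.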
